A study of Rattus norvegicus with 6 samples.

Results

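The D-type cyclins, their kinase partners and the inhibitors of these kinases were measured in Suz12-depleted rat intestinal epithelial cells. The genes are Ccnd1, Ccnd2 and Ccnd3 (cyclins D1, D2 and D3), Cdk4 and Cdk6, Cdkn1a (p21), Cdkn1b (p27), Cdkn2a (p16 and Arf), Cdkn2b (p15) and Cdkn2c (p18). Every probe set annotated to exactly 1 of these 10 symbols was taken, whatever its values. This gave 15 probe sets of 31042 in all, for 10 of 14217 genes, and 4 of the genes had more than 1 probe set. A probe set is a group of short probes on the array that together give 1 value for a transcript.

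All cells were IEC-6, a rat line that is not tumorigenic and resembles the undifferentiated cells of small intestinal crypts, grown in medium with 5% fetal bovine serum. ShControl cells had been infected with a lentivirus carrying a scrambled short hairpin RNA and ShSuz12 cells with one carrying a hairpin against Suz12, a core subunit of Polycomb repressive complex 2 (PRC2), and both were selected with puromycin. RNA from 3 independent experiments was hybridized for each group, 6 Affymetrix arrays in all. Each group is 1 infected cell population, the efficiency of infection was estimated at 25%, and the cell density at RNA isolation for the arrays is not stated in the sources used.

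D-type cyclins are made in response to growth signals and bind Cdk4 or Cdk6. The active kinases phosphorylate the retinoblastoma protein, which releases E2F transcription factors and lets cells pass from G1 into S phase. Inhibitors of the INK4 family (Cdkn2a, Cdkn2b, Cdkn2c, Cdkn2d) bind Cdk4 and Cdk6 themselves, whereas those of the CIP/KIP family (Cdkn1a, Cdkn1b, Cdkn1c) bind cyclin and kinase together and also restrain Cdk2. PRC2 methylates lysine 27 of histone H3, a repressive mark, and the locus of Cdkn2a and Cdkn2b is among its best known targets.

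The sequences behind the design and behind a member are shown here. The hairpin of the ShSuz12 cells targets a stretch of 21 bases of Suz12:
ShSuz12 hairpin target: gctgacaatcaaatgaatcat
A promoter window (250 bases before to 50 after the RefSeq gene start, build GRCr8) was at hand for 7 of the 10 genes. Ccnd1, Ccnd2 and Cdk6 had no window and were not searched. Of the 7 windows, that of Cdk4 is shown up to the start. It was chosen because it holds several copies of a motif that Myc, a factor described with the pathway genes, can bind. In this stretch (chr7:64771203-64771452, plus strand) capitals mark the E-box CACGTG at 203, 183 and 95 bases before the start:
Cdk4: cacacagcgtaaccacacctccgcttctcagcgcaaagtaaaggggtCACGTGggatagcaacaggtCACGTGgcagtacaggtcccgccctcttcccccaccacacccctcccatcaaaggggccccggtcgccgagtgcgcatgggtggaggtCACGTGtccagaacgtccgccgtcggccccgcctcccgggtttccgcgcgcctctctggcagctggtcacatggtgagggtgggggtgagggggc
Searched on both strands, CACGTG was found in 6.42% of all 33469 promoter windows and in none of the other 6 member windows. The Stat motif TTCNNNGAA was in 8.87% of all windows and in 0 of the 7. The GC box GGGCGG, in 33.1% of all windows, was in 6 of the 7, Cdkn1a being the exception. CpG dinucleotides numbered 7 in the Cdkn1a window, which is also the median of all windows, and 13 (Cdkn2a) to 30 (Cdkn1b) in the other 6. A match is a description of the letters and not a measured binding site.

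The arrays of a group were alike, with Pearson's r across probe sets of 0.997 to 0.998 within and 0.979 to 0.980 between the groups. On the log2 scale, Suz12 itself fell by 2.76 (limma, standard error 0.09, adjusted p = 2.78e-07). Across the 31042 probe sets the median change was -0.05. Over all 14217 genes by their brightest probe set, 17.1% were higher and 23.3% were lower (limma, adjusted p under 0.05). Among 8 measured reference genes log2 fold changes ran from -0.32 to 0.27, with 1 higher and 3 lower. Of 14 intestinal epithelial markers, 3 were higher and 2 were lower (mean log2 value 5.67 to 5.73 in ShControl and 6.01 to 6.12 in ShSuz12 arrays). Epcam and Krt18, defining markers of epithelium, lay at percentile 8.15 or below in both groups, while Cdh1 (E-cadherin) lay at percentile 99.3 in ShControl cells and fell by 0.76. The 3 higher markers were Lgr5 (3.59), Cdx2 (1.56) and Krt19 (1.19). The other lower one was Krt8 (-0.41), a keratin like Krt18 but bright, at percentile 90.15 in ShControl and 87.2 in ShSuz12 cells. Of 13 fibroblast and smooth muscle markers, 7 were higher and 2 were lower (mean 8.16 to 8.20 against 9.19 to 9.22). The largest rises were those of Postn (3.48), Lum (2.46), Col1a2 (2.34) and Col3a1 (2.33). The lower ones were Acta2 (-0.66) and Tagln (-0.35). Leukocyte markers (0 higher and 2 lower of 6) had means of 4.46 to 4.52 against 4.29 to 4.35, with Ptprc at percentile 13.6 or below in both groups. The 2 lower ones, Cd68 (-0.32) and Itgam (-0.25), were the brightest of that list, at percentile 38.55 and 36.25 in ShControl cells. Endothelial markers (1 higher and 0 lower of 5) had means of 4.32 to 4.48 against 4.51 to 4.62, with Pecam1 at percentile 6.93 or below. The higher one was Kdr (0.78), which moved from percentile 16.1 to 30.4. Tek, the brightest, lay at percentile 39.8 in ShControl and 41.0 in ShSuz12 cells and did not pass. The part of these shifts in the results on the cyclins and inhibitors was not tested.

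**Figure D1:**
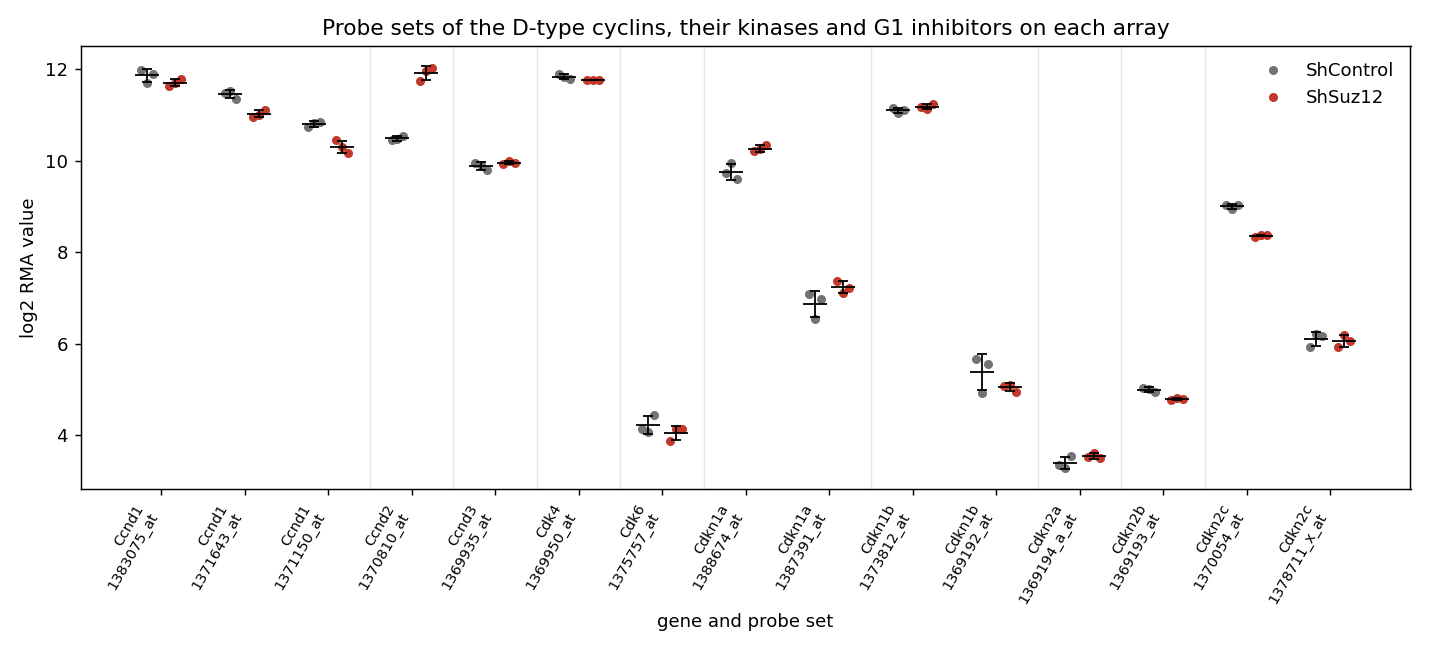
Log2 RMA value (vertical axis) of each of the 15 probe sets (horizontal axis) on the 3 ShControl arrays (grey) and the 3 ShSuz12 arrays (red), with black bars for the mean and SD. Ccnd2 shows the widest separation of the groups, and the Cdk6, Cdkn2a and Cdkn2b probe sets lie near the bottom of the scale.

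The clearest change among these genes was a rise of Ccnd2, beside smaller changes of Ccnd1, Cdkn1a and Cdkn2c. By limma, 2 of the 15 probe sets (13.3%) were higher in ShSuz12 cells with an adjusted p under 0.05, 4 (26.7%) were lower, and 9 did not pass. Over all probe sets, 14.8% were higher and 19.5% were lower by the same rule, so the counts are near the background and are not a result about these genes as a group. The higher ones were Ccnd2 and a Cdkn1a probe set. The lower ones were a pair of Ccnd1 probe sets, a Cdkn2c probe set and Cdkn2b. Only Ccnd2 was at least 2-fold higher, a size that 3.1% of all probe sets reached, and no member was called at least 2-fold lower. The groups did not overlap at 8 of the 15 probe sets (53.3%), against 47.5% of all probe sets, and an exact permutation test of 3 against 3 arrays cannot give a p below 0.1.

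Ccnd2, which encodes cyclin D2 and had 1 probe set (1370810_at), was higher on every ShSuz12 array. Its log2 values were 10.45, 10.48 and 10.55 in the 3 ShControl samples and 11.73, 11.97 and 12.03 in the 3 ShSuz12 samples. Each ShSuz12 value lay above each ShControl value. The log2 fold change was 1.42 (standard error 0.08, 95% interval 1.23 to 1.61, adjusted p = 7.67e-06 from limma), that is 2.68-fold. The probe set moved from percentile 94.5 to percentile 98.5 of the array, so that Ccnd2 was already among the bright probe sets in ShControl cells. In RNA from whole cultures, a change in the number of cells that express a gene and a change in RNA per cell cannot be told apart.

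The genes whose pattern over the 6 arrays was most like that of Ccnd2, by the root mean square difference of log2 values from the ShControl mean, were Steap3 (0.06), Sfmbt2 (0.08) and Gda (0.08), among 20825 probe sets with 1 symbol. Their log2 fold changes were 1.37, 1.38 and 1.53. That these lie near the 1.42 of Ccnd2 follows from the way the genes were picked. Steap3 encodes a metalloreductase, Sfmbt2 a protein of the Polycomb group and Gda a guanine deaminase.

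Ccnd1, which encodes cyclin D1, the D-type cyclin most widely induced by growth factors, had 3 probe sets, and they did not give 1 answer. At 1371150_at the log2 values were 10.74, 10.84 and 10.84 in ShControl and 10.45, 10.29 and 10.18 in ShSuz12 samples, a fall by 0.50 (standard error 0.08, adjusted p = 0.00156 from limma). At 1371643_at they were 11.48, 11.53 and 11.35 against 10.96, 11.01 and 11.11, a fall by 0.43 (standard error 0.07, adjusted p = 0.00185 from limma). The groups did not overlap at these probe sets. At the brightest, 1383075_at, the values were 11.99, 11.70 and 11.90 against 11.62, 11.71 and 11.79. Here the groups overlapped, since ShControl replicate 2 lay below a pair of ShSuz12 samples. The log2 fold change was -0.16 (95% interval -0.35 to 0.04, adjusted p = 0.194 from limma). Without ShControl replicate 2 it was -0.24 (adjusted p = 0.0375 from limma), and with array medians subtracted -0.26 (adjusted p = 0.0298). In the other 12 of 14 alternatives it did not pass. All 3 Ccnd1 probe sets lay at or above percentile 93.7 of the array in both groups.

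Whether the Ccnd1 probe sets changed by different amounts was tested on their differences within each array. Relative to the brightest, 1371643_at changed by -0.27 (95% interval -0.52 to -0.02, adjusted p = 0.153 from limma) and 1371150_at by -0.34 (95% interval -0.65 to -0.04, adjusted p = 0.138 from limma). Neither passed. Over all 6609 such differences within 4525 genes, 13.3% passed.

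Ccnd3, which encodes cyclin D3, had log2 values of 9.95, 9.92 and 9.80 in ShControl and 9.93, 9.99 and 9.95 in ShSuz12 samples. The groups overlapped, and the log2 fold change was 0.07 (95% interval -0.07 to 0.20, adjusted p = 0.435 from limma), an interval that leaves out a change of the size seen for Ccnd2. With the median of each array subtracted, its value was -0.03, so its sign depends on the scaling.

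Neither kinase partner passed the test. Cdk4, which pairs with D-type cyclins in most proliferating cells, had log2 values of 11.90, 11.82 and 11.79 in ShControl and 11.77, 11.78 and 11.77 in ShSuz12 samples. The ShSuz12 values all lay below the ShControl values by a narrow margin, and the log2 fold change was -0.06 (95% interval -0.19 to 0.06, adjusted p = 0.390 from limma). With array medians subtracted the value was -0.17 and passed (adjusted p = 0.0355 from limma). Cdk4 did not pass in the other 13 of 14 alternatives. Cdk6, its close relative, had values of 4.14, 4.08 and 4.46 against 3.88, 4.14 and 4.14. The groups overlapped, the log2 fold change was -0.17 (95% interval -0.44 to 0.09, adjusted p = 0.285 from limma), and the probe set lay at percentile 20.6 or below in both groups.

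**Figure D2:**
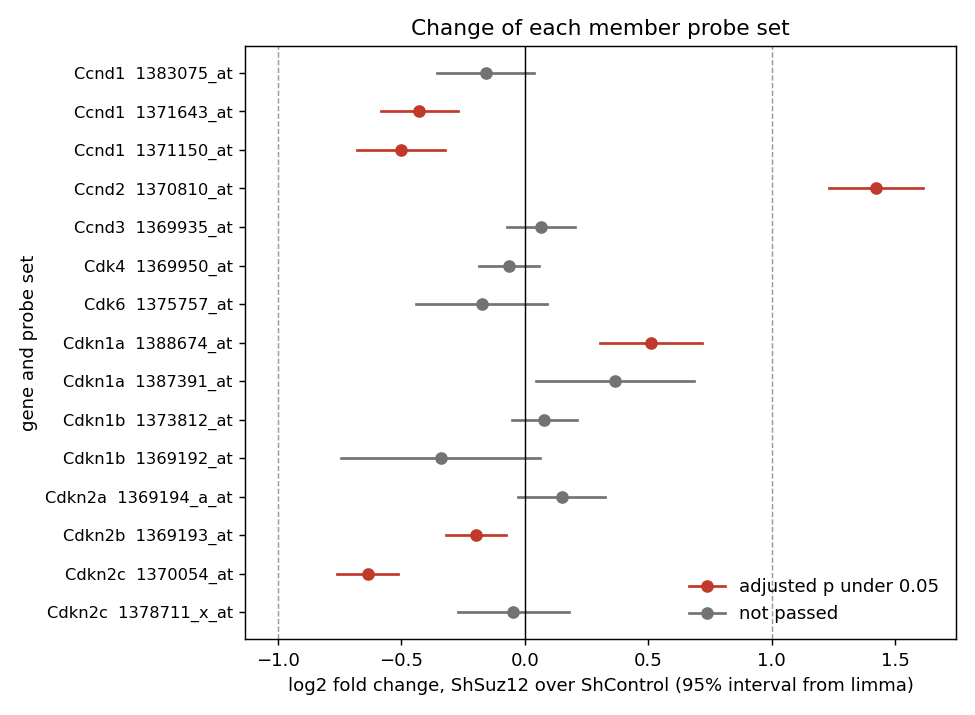
Log2 fold change (ShSuz12 over ShControl, horizontal axis) of each of the 15 probe sets (vertical axis) with its 95% interval from limma, red where the adjusted p was under 0.05 and grey otherwise, with dashed lines at 2-fold. Only Ccnd2 (1.42) lies beyond 2-fold, and the other red points run from -0.64 to 0.51.

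Among the CIP/KIP inhibitors, Cdkn1a was higher at its brighter probe set and Cdkn1b did not pass at either. Cdkn1a, the p21 inhibitor, which holds back Cdk2 in many kinds of growth arrest, had log2 values of 9.73, 9.94 and 9.60 in ShControl and 10.21, 10.25 and 10.34 in ShSuz12 samples at 1388674_at. Every ShSuz12 value exceeded every ShControl value. It rose by 0.51 (standard error 0.09, adjusted p = 0.00307 from limma), that is 1.42-fold.

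At the dimmer Cdkn1a probe set, 1387391_at, the values were 7.10, 6.55 and 6.98 against 7.38, 7.12 and 7.21. The groups did not overlap there either, with ShControl replicate 2 the lowest. The log2 fold change was 0.37 (standard error 0.14, adjusted p = 0.0768 from limma). Without ShControl replicate 1 it was 0.48 and passed (adjusted p = 0.0402 from limma), as it did with the replicate number as a block (adjusted p = 0.0184). This probe set passed in 4 of 14 alternatives. The Cdkn1a probe sets differed in change by -0.14 (95% interval -0.59 to 0.30, adjusted p = 0.681 from limma), dimmer minus brighter, and by -0.40 without ShControl replicate 2 (adjusted p = 0.0396 from limma).

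Cdkn1b, the p27 inhibitor, which in many cells accumulates at confluence, had values of 11.16, 11.05 and 11.10 in ShControl and 11.17, 11.14 and 11.24 in ShSuz12 samples at its brighter probe set, 1373812_at. The groups overlapped and the log2 fold change was 0.08 (95% interval -0.05 to 0.21, adjusted p = 0.323 from limma), which turned to -0.02 with array medians subtracted. This probe set lay at percentile 96.8 in ShControl and 97.1 in ShSuz12 cells. The other, 1369192_at, lay at percentile 40.1 and 34.5, with values of 5.68, 4.93 and 5.56 against 5.09, 5.11 and 4.95. ShControl replicate 2 was the lowest of the 6 samples. Its log2 fold change was -0.34 (95% interval -0.74 to 0.06, adjusted p = 0.176 from limma), and -0.57 without ShControl replicate 2 (adjusted p = 0.00139 from limma). In the other 12 of 13 alternatives this probe set did not pass. The probe sets differed in change by -0.42, dimmer minus brighter (95% interval -0.79 to -0.05, adjusted p = 0.132 from limma), and by -0.62 without that sample (adjusted p = 0.00464 from limma).

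The INK4 inhibitors showed a fall of Cdkn2c and low signals of the other members. Cdkn2c, the p18 inhibitor, had log2 values of 9.04, 8.94 and 9.03 in ShControl and 8.35, 8.37 and 8.38 in ShSuz12 samples at 1370054_at. The groups were far apart relative to their spread. At this probe set the gene fell by 0.64 (standard error 0.05, 95% interval -0.76 to -0.51, adjusted p = 6.04e-05 from limma), so that ShControl cells had 1.55-fold more.

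Its other probe set, 1378711_x_at, had values of 5.93, 6.23 and 6.17 against 5.93, 6.20 and 6.06. These overlapped, with a log2 fold change of -0.05 (95% interval -0.27 to 0.18, adjusted p = 0.753 from limma). An x in the name means that some of its probes can also bind other transcripts, and it lay near the middle of the array (percentile 49.3 in ShControl cells). The change of the Cdkn2c probe sets differed by 0.59, dimmer minus brighter (95% interval 0.32 to 0.85, adjusted p = 0.00997 from limma), and this was the only one of the 5 differences among members that passed. By the methods' t-test with Benjamini-Hochberg adjustment it did not pass (adjusted p = 0.0985).

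Cdkn2b, the p15 inhibitor, had values of 5.05, 5.01 and 4.94 in ShControl and 4.78, 4.82 and 4.80 in ShSuz12 samples, with no overlap. It fell by 0.20 (standard error 0.05, adjusted p = 0.0213 from limma) from percentile 34.6, a size inside the range of the reference genes. The call was lost in 6 of 12 alternatives, with an adjusted p of up to 0.0703, reached without ShSuz12 replicate 1, and 0.0560 with the replicate number as a block.

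Cdkn2a, which encodes p16 and the Arf protein, had values of 3.36, 3.29 and 3.54 in ShControl and 3.52, 3.62 and 3.50 in ShSuz12 samples. The groups overlapped and both lay at the floor of the array, at percentile 4.16 and 6.95. The log2 fold change was 0.15 (95% interval -0.03 to 0.33, adjusted p = 0.173 from limma), and 0.22 without ShControl replicate 3 (adjusted p = 0.0424 from limma). In the other 11 of 12 alternatives Cdkn2a did not pass. The neighbour Mtap, an enzyme of methionine salvage, was at percentile 78.2 and rose by 0.34 (standard error 0.07, adjusted p = 0.00786 from limma). At its dimmer probe sets the change was 0.36 (adjusted p = 0.00909 from limma) and 0.16 (adjusted p = 0.158 from limma, not passed). Dmrta1, on the other side of the locus, was at percentile 6.90 and did not pass (0.20, adjusted p = 0.0692 from limma).

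**Figure D3:**
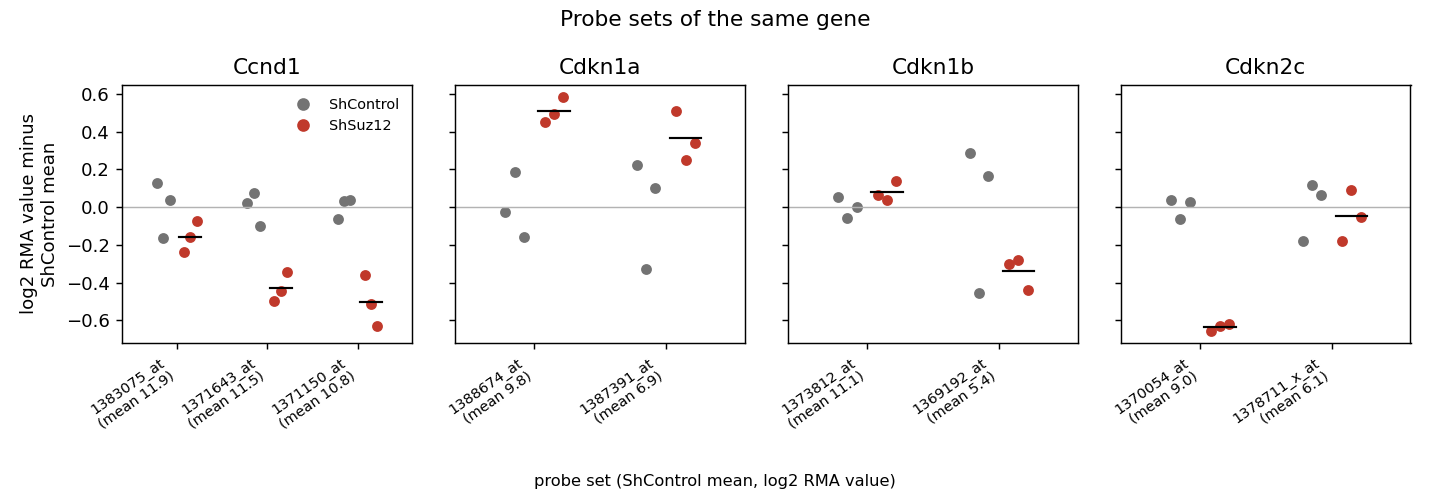
Log2 RMA value minus the ShControl mean of the probe set (vertical axis) for the 4 genes with more than 1 probe set, grey for ShControl and red for ShSuz12 arrays, black bars for the ShSuz12 mean. In Cdkn2c the brighter probe set sits at -0.64 and the dimmer at -0.05, and in the dimmer probe sets of Cdkn1a and Cdkn1b ShControl replicate 2 is the lowest grey point.

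The other genes of the pathway are given by their brightest probe set. Over all 14217 genes, limma called 17.1% higher and 23.3% lower (adjusted p under 0.05), and the median change was -0.05. Of 10 other regulators of G1 and of entry into S phase, 2 were higher and 6 were lower (median -0.39). Cdkn1c, the p57 inhibitor, had the largest change, with values of 5.03, 5.12 and 5.06 in ShControl and 7.67, 7.26 and 7.20 in ShSuz12 samples. It rose by 2.31 (standard error 0.12, adjusted p = 3.52e-06 from limma). Cyclin E1 (Ccne1) rose by 0.71 and cyclin E2 (Ccne2), which also activates Cdk2, fell by 0.67 (-0.22 at its dimmer probe set). Cdkn2d, the remaining INK4 inhibitor (p19), fell by 0.66 and 0.64 at its probe sets, a direction it shares with Cdkn2c. Cdk2 fell by 0.38 and Ccna2, the S phase cyclin A2, by 0.83.

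Of 12 genes of the RB and E2F family, 2 were higher and 6 were lower (median -0.13). Rb1, the retinoblastoma protein that Cdk4 and Cdk6 phosphorylate, rose by 0.47 (standard error 0.06, adjusted p = 4.10e-04 from limma). Its relatives Rbl1 and Rbl2 fell by 0.21 and 0.18, E2f1 fell by 0.46, E2f5 fell by 0.55 and Tfdp2, a partner of the E2F proteins, rose by 0.42. Of 17 E2F target genes of DNA replication, limma called 0 higher and 14 lower (median -0.28). These included Tk1 (-0.54), Cdt1 (-0.48), Mcm6 (-0.45), Tyms (-0.45) and Pcna (-0.35). Without ShSuz12 replicate 2 the count was 9, and without ShSuz12 replicate 3 it was 8. None of the 17 was 2-fold lower, and the methods' t-test gave 15 lower and 1 higher at an unadjusted p under 0.05 and 13 and 0 after adjustment.

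Of 10 genes for the degradation of D cyclins, p27 and cyclin E, 1 was higher and 2 were lower (median -0.12), with 1 to 6 lower over the alternatives that keep the 0.05 threshold alone. Fbxw7, which marks cyclin E for degradation, rose by 0.95 (standard error 0.10, adjusted p = 1.52e-04 from limma). Fbxo4 and Fbxo31, which have been linked to the turnover of cyclin D1, fell by 0.82 and 0.20. When any 1 array was left out, the number of genes lower was 1. Skp2, the ligase subunit for p27, had no probe set with that symbol alone.

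Of 21 transcription factors known to act on these genes, 8 were higher and 8 were lower (median -0.07). Ets2 rose by 1.12, Stat3 by 0.97 (standard error 0.08, adjusted p = 5.56e-05 from limma) and Foxo1, which can activate Cdkn1b, by 0.88 at the brightest of its 3 probe sets (0.19 and 0.01 at the others, not passed). Myc, a growth-promoting factor that can bind the E-box, fell by 0.84, from 9.25, 9.17 and 9.20 in ShControl to 8.42, 8.27 and 8.43 in ShSuz12 samples (standard error 0.06, adjusted p = 3.09e-05 from limma). Of 11 Polycomb and H3K27 demethylase genes, 3 were higher and 3 were lower (median -0.07), with 6 lower when array medians were subtracted. Ezh2, the methyltransferase of PRC2, fell by 0.61, Kdm6b rose by 0.69 and Jarid2, an accessory factor of PRC2, rose by 0.40. The dimmest probe sets of Ezh2 (-0.11) and Jarid2 (0.04) did not pass, while their others did.

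**Figure D4:**
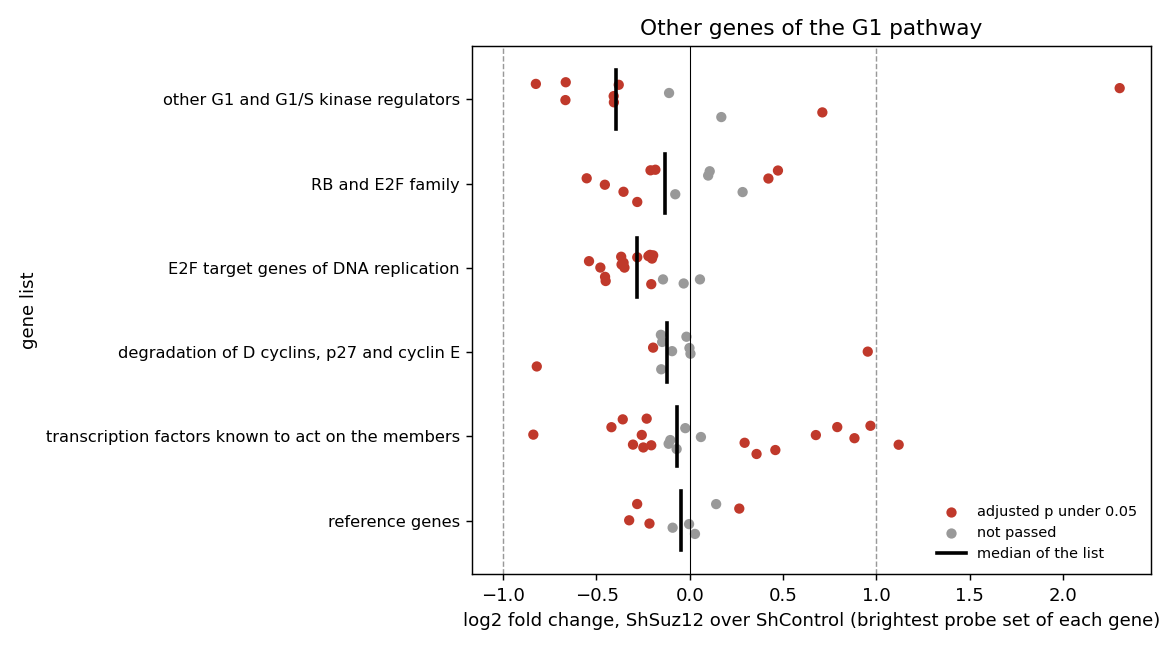
Log2 fold change (ShSuz12 over ShControl, horizontal axis) of the measured genes of 6 lists (vertical axis), each point 1 gene by its brightest probe set, red where the adjusted p from limma was under 0.05, black bars for list medians and dashed lines at 2-fold. The medians run from -0.39 for the other G1 regulators to -0.05 for the reference genes.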

How the data were processed

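The deposited log2 values came from the authors' run of RMA in FlexArray, which corrects background, normalizes the arrays to one another and gives each probe set a single value on each array. After 57 control probe sets were left out, 31042 were fitted with limma (version 3.58.1, R 4.3.3). The tests were two-sided, and the Benjamini-Hochberg adjustment ran over all of them. The main call was an adjusted p under 0.05. No other columns were present. Probe sets were named from the platform annotation (20826 with 1 symbol, 436 with several, 9780 not listed), and the GRCr8 gene table changed 0 symbols. Differences between a gene's probe sets were formed within arrays and fitted in the same way, for 6609 differences. The fits were tested on simulated data. Promoters came from RefSeq (GRCr8).

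All member probe sets were named, with up to 4 called genes of each list by size of change and 14 preset ones. The members and lists were chosen with earlier results of these data known. Alternatives were the methods' t-test, median subtraction, a second quantile normalization, filters at the 40th and 60th percentile, a trended robust eBayes, a replicate block, other thresholds, averaged probe sets and leaving out each array. Whether equal replicate numbers mark the same experiment is not stated in the sources used, and the main fit did not pair them. Figures were drawn with matplotlib 3.10.9. The counts over all lists include 1 list of genes that is not reported here.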

Additional observations from a re-analysis of the deposited data

How the results depend on the processing

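The direction and the call of Ccnd2, Cdkn1a at its brighter probe set, Cdkn2c at 1370054_at and Ccnd1 at 1371643_at and 1371150_at held in all 14 alternatives. Their log2 fold changes ran from 1.32 to 1.51, from 0.41 to 0.60, from -0.74 to -0.60, from -0.53 to -0.39 and from -0.60 to -0.44. Requiring 2-fold as well left 1 member probe set higher and 0 lower. Over the lists without members it left 3 genes higher and 1 lower, the latter being Suz12, the target of the hairpin. Without that limit 27 and 43 passed, where 17.1% of all 14217 genes were higher and 23.3% were lower. Such shares were larger among bright probe sets. Of the 13098 kept by the filter at the 60th percentile, 2949 were higher and 5156 were lower. The totals of 27 and 43 pool lists of different kinds, the reference genes included, and are not a result about the pathway. Member probe sets called lower numbered 6 with array medians subtracted, 3 with an adjusted p under 0.01 and 3 to 6 when an array was left out, and those called higher 2 to 3 when an array was left out. Subtracting medians moved the median of all probe sets from -0.05 to -0.15 and the share of higher ones among all called from 43.2% to 23.3%. The difference between the Cdkn2c probe sets (0.59) did not pass by the methods' t-test with adjustment (adjusted p = 0.0985). When each array was left out in turn, the differences ran from 0.48 to 0.68 for Cdkn2c, from -0.40 to -0.013 for Cdkn1a and from -0.62 to -0.30 for Cdkn1b.

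Same-numbered arrays of the groups did not deviate together (r of -0.06 to 0.02 across probe sets, with different numbers -0.04 to 0.09), and 0 of 6 arrays correlated best with their own number. With the replicate block, 3 member probe sets were higher and 3 lower, since the dimmer Cdkn1a passed (0.37, adjusted p = 0.0184) and Cdkn2b did not (-0.20, adjusted p = 0.0560). The number of arrays and the low signal of Cdk6, Cdkn2a, Cdkn2b and the dimmer Cdkn1b probe set limit what can be seen.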
